A study of Mus musculus with 6 samples.

Results

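The 9 genes described here encode the TEAD transcription factors and their cofactors: Vgll2, Vgll3 and Vgll4, Tead1, Tead2, Tead3 and Tead4, and Yap1 and Wwtr1 (the gene of TAZ). They were picked by gene name from 55421 genes in the deposited table, with the fold changes of the comparison below already known, Vgll2 being among the largest. Their differences between groups are therefore given as a description, without p-values, and the number of them past a cut-off is given only beside the share of all tested genes. Transcripts were measured by RNA-seq in C2C12 cells, a mouse myoblast line, on day 4 of differentiation. Both groups carried a stably transfected GFP plasmid with 200 CUG repeats in its transcript (CUG200), which models myotonic dystrophy type 1 (DM1). The control group (genotype control) carried an empty vector in addition, and the miR-322/-503 group stably overexpressed these microRNAs, with 3 libraries in each group. Since a separate stable line was made for each group, effects of the microRNAs and of the line cannot be told apart. The study's methods speak of biological replicates for its assays in general, the labels do not say that the libraries of a group came from separate cultures, and p-values measure only the spread between these libraries.

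TEAD proteins bind DNA at the MCAT element but activate little by themselves, and their output depends on the cofactor they hold. YAP and TAZ are the cofactors that the Hippo kinases keep out of the nucleus, and they drive growth and matrix genes. VGLL proteins bind TEAD through a short motif of their own. VGLL2 is known from skeletal muscle, where it accompanies differentiation, VGLL3 has been described in muscle and in fibroblast-like cells, and VGLL4 competes with YAP for TEAD. In cultured myoblasts, high YAP activity is known to favour proliferation over differentiation.

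The sequences of the overexpressed microRNAs are shown because their seeds decide which transcripts they can pair with. These are the mature sequences from RefSeq on GRCm38.p6, 5′ to 3′, with the seed (bases 2 to 8) in capitals. Both are read from the minus strand, at chrX:53054306-53054327 and chrX:53054027-53054049. The seeds differ in their last base.
miR-322-5p: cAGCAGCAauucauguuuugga
miR-503-5p: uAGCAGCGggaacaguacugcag

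The 3′ UTRs of the members were searched for the 7 bases complementary to either seed (TGCTGCT for miR-322-5p and CGCTGCT for miR-503-5p) in the GENCODE M21 transcript models of GRCm38. A match was found in 3 of the 9 members. The stretches that hold them are given on the transcript strand, with the seed match in capitals.
Tead1, miR-322-5p match, chr7:112906199-112906222, plus strand: ttttgatactgtacTGCTGCTggg
Tead4, miR-322-5p match, chr6:128227978-128228001, minus strand: gaacctcacactccTGCTGCTggt
Yap1, miR-503-5p match, chr9:7934338-7934361, minus strand: ttttctctgcccgtCGCTGCTctt
The Tead1 match lay at base 7553 of a 3′ UTR of 8147 bases, the Tead4 match at base 379 of 1223 and the Yap1 match at base 150 of 2498. The other 6 members held neither match, in 3′ UTRs of 460 bases (Vgll2) to 5655 bases (Vgll3). Among 13409 tested genes with a 3′ UTR, 24.4% held the miR-322-5p match and 4.87% the miR-503-5p match. The 6 bases that both matches share, GCTGCT, were held by 45.2% of these genes. Counting the matches above, they occurred 3 times in Yap1, 2 times in Tead4 and 1 time in Tead1, and in no other member. A match is a description of the letters and not a shown site of action.

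The 6 libraries held 73532084 to 92157388 estimated counts, which correspond to 18383021 to 23039347 read pairs, and libraries of a group differed by more than sampling noise. All 9 members passed the filter on low counts, among 18140 genes that did. The myogenic label was checked against 10 markers, of which 9 were detected and Pax7, the satellite cell marker, was not above 12 estimated counts in any library. Their summed level was 1952 to 2102 TPM (a level per transcript length, scaled to the library) in control and 2546 to 2717 TPM in miR-322/-503. The summed level of 5 smooth muscle markers, all detected, was 5633 to 5869 TPM in control and 2627 to 2744 TPM in miR-322/-503. Adipocyte markers (2 of 5 detected, with Adipoq, Plin1 and Cidec at or near 0) summed to 8.12 to 10.1 TPM in control and 13.99 to 16.6 TPM in miR-322/-503. Endothelial markers (1 of 5, with Pecam1, Cdh5, Kdr and Emcn at or near 0) summed to 0.423 to 0.524 TPM in control and 1.58 to 2.35 TPM in miR-322/-503. For macrophage markers (2 of 5, with Ptprc, Adgre1 and Itgam at or near 0) the sums were 3.31 to 5.74 TPM and 5.71 to 6.49 TPM, and for osteoblast markers (4 of 5, with Ibsp at or near 0) they were 26.9 to 28.8 TPM and 23.9 to 27.7 TPM. The part of these differences in the results below was not tested. In bulk RNA, fewer cells that express a gene and less of its RNA per cell cannot be told apart.

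The members did not move together. Vgll2 and Tead2 were higher in miR-322/-503 than in control, Vgll3, Tead4 and Yap1 were lower, and the groups overlapped for Vgll4, Tead1, Tead3 and Wwtr1. By counts scaled to library size (CPM), the groups did not overlap for 5 of the 9 members, beside 45.1% of all tested genes. Of these, 2 were higher (21.6% of all tested genes) and 3 were lower (23.5%). Past both cut-offs (adjusted p under 0.05 in edgeR's quasi-likelihood test and a log2 fold change beyond 1 in either direction) were 2 members, Vgll2 and Tead2, both higher, beside 9.87% of all tested genes in either direction and 4.59% higher. By adjusted p alone there were 4, with Vgll3 and Yap1 in addition as lower, beside 28.8% of all tested genes, 13.2% higher and 15.5% lower. That count was 3, without Yap1, when control replicate 1 or 3 or miR-322/-503 replicate 1 or 2 was left out. Without control replicate 3 or without miR-322/-503 replicate 1, the count past both cut-offs fell to 1, because the log2 fold change of Tead2 came to 0.96 and 0.98. The median log2 fold change was 0.02 over the members and -0.01 over all tested genes. As the contrast itself had been used in choosing the genes, nothing is read from these counts.

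**Figure D1:**
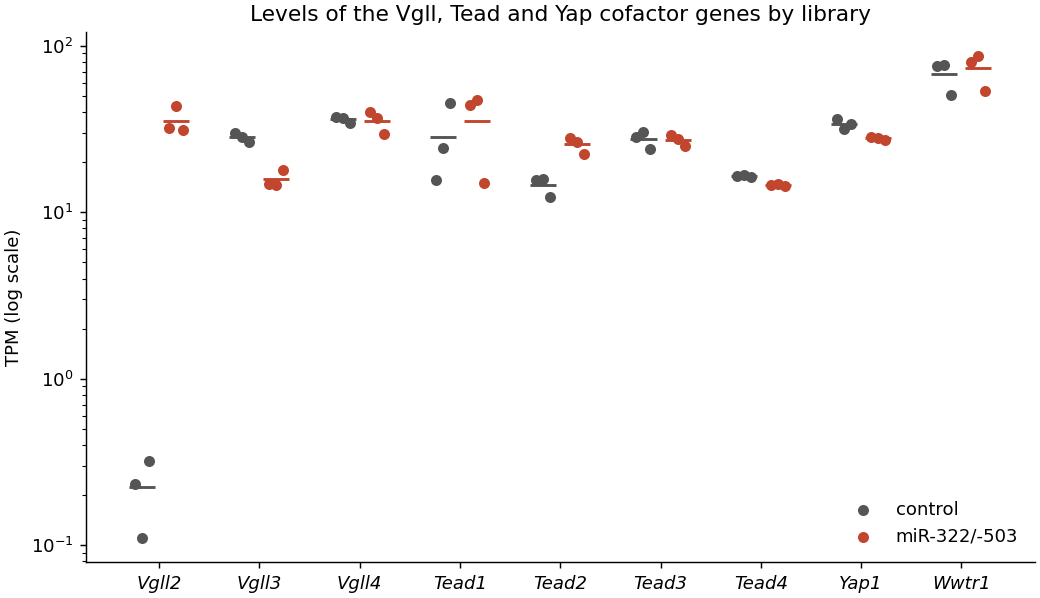
TPM of the 9 genes in each library, on a log axis, with control and miR-322/-503 side by side, 1 point per library and a bar at the group mean. Vgll2 lay at 0.111 to 0.322 TPM in control and 31.1 to 43.4 TPM in miR-322/-503, while Tead1 spread as widely within each group as between them.

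Vgll2, the VGLL gene tied to skeletal muscle differentiation, showed by far the largest difference of the 9 members. It lies on the plus strand at chr10:52022502-52028471. In the 3 control libraries its level was 0.234, 0.111 and 0.322 TPM. In the 3 miR-322/-503 libraries it was 32.0, 43.4 and 31.1 TPM. All miR-322/-503 libraries were thus far above all control libraries. The control values rest on 16, 8 and 22 estimated counts, where a read pair gives about 4, and the miR-322/-503 values on 2254, 2391 and 1818. In CPM, Vgll2 averaged 0.188 ± 0.0834 (SD, n = 3) in control and 26.6 ± 4.61 (SD, n = 3) in miR-322/-503. The fitted log2 fold change was 7.13 ± 0.29 (SE), a fold of 140.1, which ranked 50 from the highest value downwards among the 18140 tested genes. With a pseudocount of 1 on the TPM scale it was 4.89, since the control level is far below 1 TPM.

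Vgll3, a second VGLL cofactor of TEAD, went the other way. It lies on the plus strand at chr16:65815257-65866368. Its level was 29.9, 28.4 and 26.6 TPM in control and 14.9, 14.5 and 18.1 TPM in miR-322/-503, with no overlap between the groups. In CPM it averaged 90.0 ± 1.20 (SD, n = 3) in control and 50.6 ± 4.41 (SD, n = 3) in miR-322/-503, which is 1.78-fold lower. The log2 fold change was -0.83 ± 0.07 (SE), short of the cut-off of 1, and it stayed between -0.90 and -0.78 when any library was left out.

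Vgll4, which lacks the muscle restriction of Vgll2 and opposes YAP at TEAD, lies on the minus strand at chr6:114860628-114969994. Its level was 37.5, 37.0 and 34.5 TPM in control and 39.9, 37.0 and 29.6 TPM in miR-322/-503. The control values fell inside the range of the miR-322/-503 values. Vgll4 had a log2 fold change of 0.02 ± 0.10 (SE), and its sign changed with the processing.

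With these values, the make-up of the VGLL transcripts differed between the groups. The summed level of the 3 genes was 67.6, 65.5 and 61.5 TPM in control and 86.7, 94.9 and 78.8 TPM in miR-322/-503. Vgll2 made up 0.347% ± 0.178 (SD, n = 3) of that sum in control and 40.7% ± 4.53 (SD, n = 3) in miR-322/-503. The share of Vgll3 was 43.6% ± 0.503 in control and 18.5% ± 3.99 in miR-322/-503. The share of Vgll4 was 56.1% ± 0.527 and 40.9% ± 4.50, although its level overlapped between the groups. Control transcripts of the family were thus nearly all Vgll3 and Vgll4, and in miR-322/-503 Vgll2 stood level with Vgll4. Taken over estimated counts, without division by length, the share of Vgll2 in miR-322/-503 was 22.8% and that of Vgll3 43.6%. The share of Vgll4 turned direction on that scale, with 29.9% in control and 33.6% in miR-322/-503.

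**Figure D2:**
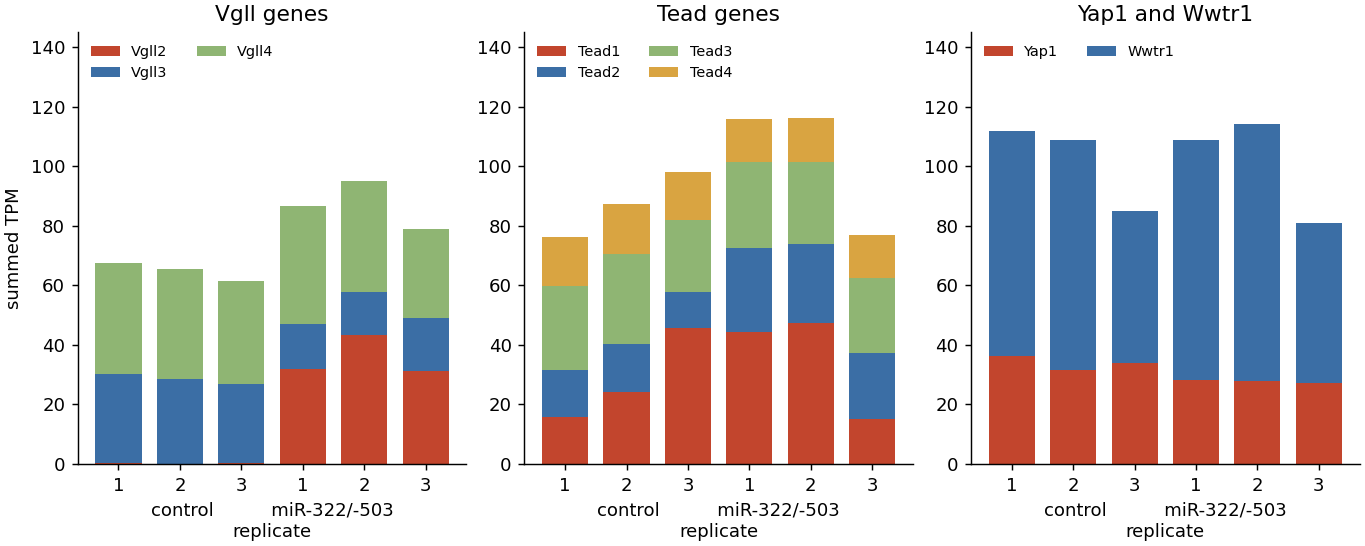
Summed TPM of the VGLL genes, the TEAD genes and Yap1 with Wwtr1 in each of the 6 libraries, as bars from 0 stacked by gene. Vgll2 is a visible part of the VGLL bar in the 3 miR-322/-503 libraries only, where the sum reached 78.8 to 94.9 TPM against 61.5 to 67.6 TPM in control.

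Among the DNA-binding TEAD factors, Tead2 was the member with a clear difference between the groups. TEAD2 is the family member known best from the early embryo and the neural tube. The gene lies on the plus strand at chr7:45215753-45233644. Its level was 15.7, 15.9 and 12.3 TPM in control and 28.1, 26.5 and 22.3 TPM in miR-322/-503, so every miR-322/-503 library was above every control library. In CPM it averaged 16.4 ± 2.27 (SD, n = 3) in control and 33.6 ± 2.63 (SD, n = 3) in miR-322/-503. The fold of 2.05 gave a log2 fold change of 1.04 ± 0.12 (SE), just past the cut-off of 1. On log2(TPM + 1) the difference was 0.77, and on log2(TPM + 0.1) it was 0.80. The mean transcript length implied by the deposited values (the count times 75 bases, divided by the base depth that the FPKM stands for) was 1911, 2248 and 2239 bases in control and 2493, 2413 and 2497 bases in miR-322/-503. The implied length and the count were thus both higher in miR-322/-503, and the part of length in the count was not tested.

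Tead1, which encodes a TEAD factor of heart and skeletal muscle, could not be compared between the groups with any precision. It lies on the plus strand at chr7:112679318-112906807. In CPM it was 32.3, 23.4 and 196.5 in control and 189.4, 206.3 and 33.2 in miR-322/-503. The libraries fell into a low and a high set that cut across both groups, with control replicates 1 and 2 and miR-322/-503 replicate 3 in the low set. Tead1 had a log2 fold change of 0.77 ± 0.92 (SE). Without control replicate 3 it was 2.36, and leaving out any 1 of the 6 libraries gave 0.32 to 2.36.

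The implied transcript length of Tead1 was high where its count was high. The implied length is computed from the count and the FPKM, so part of this likeness is arithmetic. It was 3956, 1823 and 8158 bases in control and 8219, 8326 and 3956 bases in miR-322/-503. The 3 libraries with high counts were thus those with an implied length of at least 8158 bases. GENCODE M21 lists 15 Tead1 transcripts, of which 2 are 9964 and 9480 bases long and the others are at most 3047 bases. Per length, the spread within groups was smaller, with 15.7, 24.3 and 45.5 TPM in control and 44.3, 47.5 and 14.98 TPM in miR-322/-503, and the groups still overlapped. Whether the libraries held different Tead1 transcripts, or were assembled differently by the authors' counting, was not tested. The miR-322-5p match of Tead1 shown above lies in an exon of the 2 long transcripts and of no other listed transcript.

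A split of this size was rare in the data. The highest Tead1 value was 8.39-fold the lowest in control and 6.22-fold in miR-322/-503. Among the 9243 genes that averaged 10 CPM or more in each group, 15 (0.162%) varied at least 4-fold within both groups. The median gene varied 1.14-fold in control and 1.12-fold in miR-322/-503. For the other members the implied length varied at most 1.31-fold over the libraries, against 4.57-fold for Tead1.

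Tead3 and Tead4 differed little. Tead3, on the minus strand at chr17:28331671-28350817, was at 28.4, 30.3 and 24.2 TPM in control and 29.1, 27.6 and 25.1 TPM in miR-322/-503. The miR-322/-503 values of Tead3 lay inside the control range, with a log2 fold change of 0.02 ± 0.08 (SE) whose sign changed with the processing. Tead4, a TEAD gene that MYOD is known to bind during myoblast differentiation, lies on the minus strand at chr6:128224288-128300823. Its level was 16.4, 16.8 and 16.2 TPM in control and 14.5, 14.8 and 14.3 TPM in miR-322/-503, so that the groups did not overlap although the difference was small. The log2 fold change of Tead4 was -0.18 ± 0.07 (SE), and it was negative in every alternative fit.

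The summed TEAD level was 76.3, 87.3 and 98.2 TPM in control and 115.9, 116.3 and 76.7 TPM in miR-322/-503, and it carried the spread of Tead1. The share of Tead2 in that sum was 17.1% ± 4.14 (SD, n = 3) in control and 25.4% ± 3.30 (SD, n = 3) in miR-322/-503. Tead1 held 31.6% ± 13.3 and 32.9% ± 11.6, Tead3 held 32.2% ± 6.69 and 27.2% ± 4.87, and Tead4 held 19.1% ± 2.53 and 14.6% ± 3.52. Per length, no TEAD gene held most of the sum in either group, while over estimated counts Tead1 held 53.5% in miR-322/-503.

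Yap1, the gene of the Hippo-controlled coactivator YAP, was slightly lower in miR-322/-503. It lies on the minus strand at chr9:7931999-8004596. Its level was 36.2, 31.6 and 33.95 TPM in control and 28.4, 27.8 and 27.1 TPM in miR-322/-503, with no overlap. The log2 fold change was -0.25 ± 0.06 (SE). When 1 library was left out it stayed between -0.29 and -0.21. The genes of chromosome 9 as a whole were lower in miR-322/-503, with a median log2 fold change of -0.27 over 1014 tested genes, against -0.02 to 0.01 for the chromosomes of the other members. Of the chromosome 9 genes, 53.0% had a lower log2 fold change than Yap1. The part of this shift of chromosome 9 in the difference of Yap1, and what lies behind the shift between the stable lines, was not tested.

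Wwtr1, which encodes the YAP paralogue TAZ, was the most abundant member in both groups. It lies on the minus strand at chr3:57455649-57575910. Its level was 75.8, 77.2 and 50.9 TPM in control and 80.4, 86.5 and 53.7 TPM in miR-322/-503. The lowest value of either group was that of replicate 3, and the groups overlapped. The log2 fold change was 0.13 ± 0.20 (SE), and without control replicate 3 it was -0.04, the only negative value among the fits that left out a library. The summed level of Yap1 and Wwtr1 was 101.8 ± 14.9 TPM (SD, n = 3) in control and 101.3 ± 17.9 TPM (SD, n = 3) in miR-322/-503. Wwtr1 made up 66.2% of it in control and 72.0% in miR-322/-503.

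**Figure D3:**
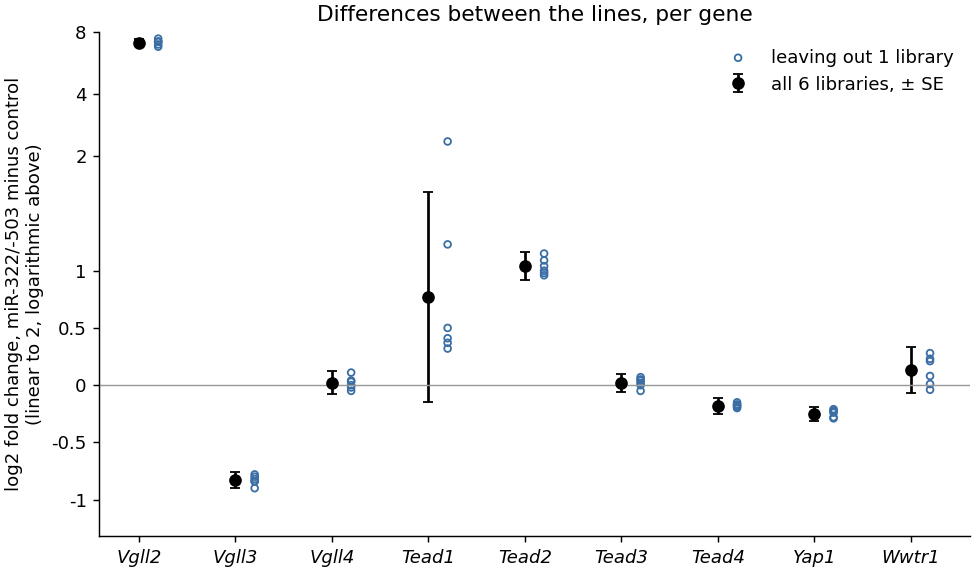
Log2 fold change of each member, miR-322/-503 minus control, from edgeR, with bars of 1 SE. Open points are the fits that left out 1 library. The axis is linear for small values and logarithmic for large ones, so the distance of Vgll2 is compressed. Vgll2 stands at 7.13 and Tead2 at 1.04, Vgll3 lies at -0.83, and the bar of Tead1 spans 0.92 to either side of 0.77.

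The order of levels per length differed between the groups mainly through Vgll2 and Vgll3. In control, Wwtr1 (mean 67.9 TPM) stood above all other members, without overlap with its neighbour. Vgll4 (36.3 TPM), Yap1 (33.9 TPM), Tead1 (28.5 TPM), Vgll3 (28.3 TPM) and Tead3 (27.6 TPM) followed, and neighbours among these 5 overlapped. Tead4 (16.5 TPM), Tead2 (14.7 TPM) and Vgll2 (0.223 TPM) came last and were separated from each other. In miR-322/-503, Wwtr1 (73.6 TPM) was again highest, followed by Tead1 (35.6 TPM), Vgll4 (35.5 TPM) and Vgll2 (35.5 TPM), which could not be told apart by their spread. Yap1 (27.8 TPM), Tead3 (27.2 TPM) and Tead2 (25.6 TPM) formed the next set, and Vgll3 (15.8 TPM) and Tead4 (14.5 TPM) overlapped at the bottom.

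The promoters were read because TEAD factors bind the MCAT element, CATTCC, and the members themselves could carry it. RefSeq windows on GRCm38.p6, from 250 bases before to 50 bases after a transcription start, were found for 7 of the 9 members. CATTCC, on either strand, was present in at least 1 window of 5 of these 7 members, and in 7 of their 10 windows. Of all 32851 windows, 14.7% held it. That share is per window, so it is no base rate for the count of 5 among 7 members. Tead3 has 3 windows and Wwtr1 has 2, and windows of the same gene are not separate observations. The stretch around the match is printed 5′ to 3′ on the strand of the gene, with CATTCC or its reverse complement GGAATG in capitals.
Vgll3, chr16:65815114-65815143, plus strand: cccgcctccccaCATTCCggctaccctgcc
Vgll4, chr6:114969268-114969297, minus strand: cgagtggggtggGGAATGctgagaaatgcc
Tead3, chr17:28350706-28350735, minus strand: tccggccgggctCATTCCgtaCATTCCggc
Yap1, chr9:8004720-8004749, minus strand: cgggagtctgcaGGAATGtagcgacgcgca
Wwtr1, chr3:57576029-57576058, minus strand: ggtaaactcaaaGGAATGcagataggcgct
The windows of Vgll2 and Tead2, the members that were higher in miR-322/-503, did not hold these letters, and nothing about TEAD binding is drawn from that. Tead3 held 4 matches over its windows, of which 2 lie in the stretch shown and the other 2 are not printed.

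The genes downstream of YAP, TAZ and TEAD were read from a list of 22 reported direct targets, all of which were tested. This list and the 3 after it were drawn up with earlier results of these data known, so their counts and medians describe the listed genes and nothing particular to a list is read from them. At an adjusted p under 0.05 (edgeR's quasi-likelihood test, Benjamini-Hochberg over all tested genes), 11 fell and 3 rose in miR-322/-503, beside 15.5% of all tested genes lower and 13.2% higher. The median log2 fold change of the list was -0.27, beside -0.01 over all tested genes. Of the 11 that fell, 6 had a log2 fold change below -1, beside 5.29% of all tested genes. The 3 that rose, Ankrd1, Myof and Gadd45a, changed by log2 0.58, 0.44 and 0.38. Ankrd1 encodes a stretch-responsive muscle ankyrin repeat protein, and it is the target most tied to striated muscle.

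Ccn1 (Cyr61) and Ccn2 (Ctgf), matricellular proteins often used among the readouts of YAP activity, both fell, whereas the listed target Ankrd1 rose. Ccn1 was at 768.1, 725.1 and 723.3 CPM in control and 234.3, 223.8 and 212.8 CPM in miR-322/-503. Its log2 fold change was -1.72 ± 0.06 (SE, adjusted p = 3.27e-06, edgeR). Ccn2 was at 135.4, 113.2 and 130.4 CPM in control and 51.8, 55.0 and 46.7 CPM in miR-322/-503, with a log2 fold change of -1.30 ± 0.09 (SE, adjusted p = 5.21e-05, edgeR). The groups did not overlap for either gene.

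The largest decrease of the target list was that of F3, the gene of tissue factor, which starts blood clotting. It averaged 31.0 ± 0.393 CPM (SD, n = 3) in control and 6.01 ± 0.527 CPM in miR-322/-503, with a log2 fold change of -2.37 (adjusted p = 4.81e-06, edgeR). Crim1, a transmembrane regulator of BMP signalling, fell from 33.3 to 12.01 CPM (log2 fold change -1.47, adjusted p = 3.14e-05, edgeR). Nuak2, a kinase of the AMPK-related family, fell from 15.8 to 6.90 CPM (log2 fold change -1.20, adjusted p = 6.89e-05, edgeR). Amotl2, an angiomotin that binds YAP and is also its target, fell from 199.3 ± 8.52 to 56.2 ± 17.4 CPM (SD, n = 3). Its log2 fold change was -1.83 (adjusted p = 0.000749, edgeR). Amotl2 lies on chromosome 9, whose median was -0.27, and the part of that shift in its fall was not tested.

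The Hippo pathway list held 36 kinases, scaffolds and upstream regulators, and 3 of its genes (Amotl2, Lats2 and Ptpn14) are in the target list as well. At an adjusted p under 0.05, 9 rose and 10 fell, beside 13.2% of all tested genes higher and 15.5% lower. The median log2 fold change of the list was 0.02, beside -0.01 over all tested genes. The core kinases Stk3, Stk4, Lats1 and Lats2 were not past the test, with log2 fold changes of 0.24, -0.11, -0.13 and 0.06. Of the 10 that fell, 4 had a log2 fold change below -1, namely Fat4, Dchs1, Wwc1 and Amotl2, beside 5.29% of all tested genes. The 9 that rose changed by at most log2 0.71 (Taok1, a kinase upstream of the Hippo kinases, adjusted p = 0.00289, edgeR).

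Fat4 and Dchs1 encode a giant protocadherin and its ligand, which mammals use in planar polarity and growth control. Fat4 was at 178.5, 193.3 and 189.0 CPM in control and 8.26, 10.03 and 8.01 CPM in miR-322/-503. The difference was 21.3-fold, with a log2 fold change of -4.42 ± 0.10 (SE, adjusted p = 6.43e-07, edgeR). Dchs1 fell from a low level, at 1.09, 1.28 and 1.40 CPM in control and 0, 0.133 and 0.173 CPM in miR-322/-503 (adjusted p = 0.0139, edgeR). Dchs1 was not tested with at least 10 counts in every library, and on log2(TPM + 1) its difference was -0.26. Wwc1, the gene of the scaffold KIBRA, fell from 2.69 to 0.522 CPM (log2 fold change -2.36, adjusted p = 0.000431, edgeR).

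Other proteins that bind TEAD factors, or share muscle elements with them, formed a list of 10 genes, of which 8 were tested. Vgll1 and Fam181a were too low to be tested. At an adjusted p under 0.05, 3 rose and 1 fell, beside 13.2% of all tested genes higher and 15.5% lower. The median log2 fold change was 0.18, beside -0.01 over all tested genes. The 3 that rose were the MEF2 genes of the list, which encode muscle transcription factors. Mef2c was at 2.49, 1.61 and 1.599 CPM in control and 20.8, 22.3 and 26.8 CPM in miR-322/-503. Its log2 fold change was 3.61 ± 0.21 (SE, adjusted p = 2.23e-05, edgeR), a 12.3-fold difference, and Mef2a and Mef2d changed by log2 0.39 and 0.42. The gene that fell, Fam181b, encodes a TEAD-binding protein and was low throughout, at 0.646, 0.884 and 1.14 CPM in control and 0.0315, 0.0667 and 0 CPM in miR-322/-503 (adjusted p = 0.00274, edgeR).

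Of 6 muscle genes with well described MCAT elements, 1 rose and 2 fell at an adjusted p under 0.05, beside 13.2% of all tested genes higher and 15.5% lower. Their median log2 fold change was -0.14, beside -0.01 over all tested genes. Ckm, the muscle creatine kinase gene, was at 28.3 ± 1.13 CPM (SD, n = 3) in control and rose to 51.6 ± 2.41 CPM, which is 0.87 on the log2 scale (adjusted p = 9.57e-05, edgeR). Acta2, the smooth muscle alpha-actin gene, was at 5972 ± 146.6 CPM (SD, n = 3) in control and fell to 2759 ± 122.0 CPM, which is -1.11 on the log2 scale (adjusted p = 5.7e-06, edgeR), and is 1 of the 5 smooth muscle markers above. The slow myosin gene Myh7 fell by 0.70 on the log2 scale from 3.19 CPM. The skeletal actin gene Acta1 and the cardiac troponin T gene Tnnt2 had log2 fold changes of 0.09 and 0.03 and were not past the test.

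**Figure D4:**
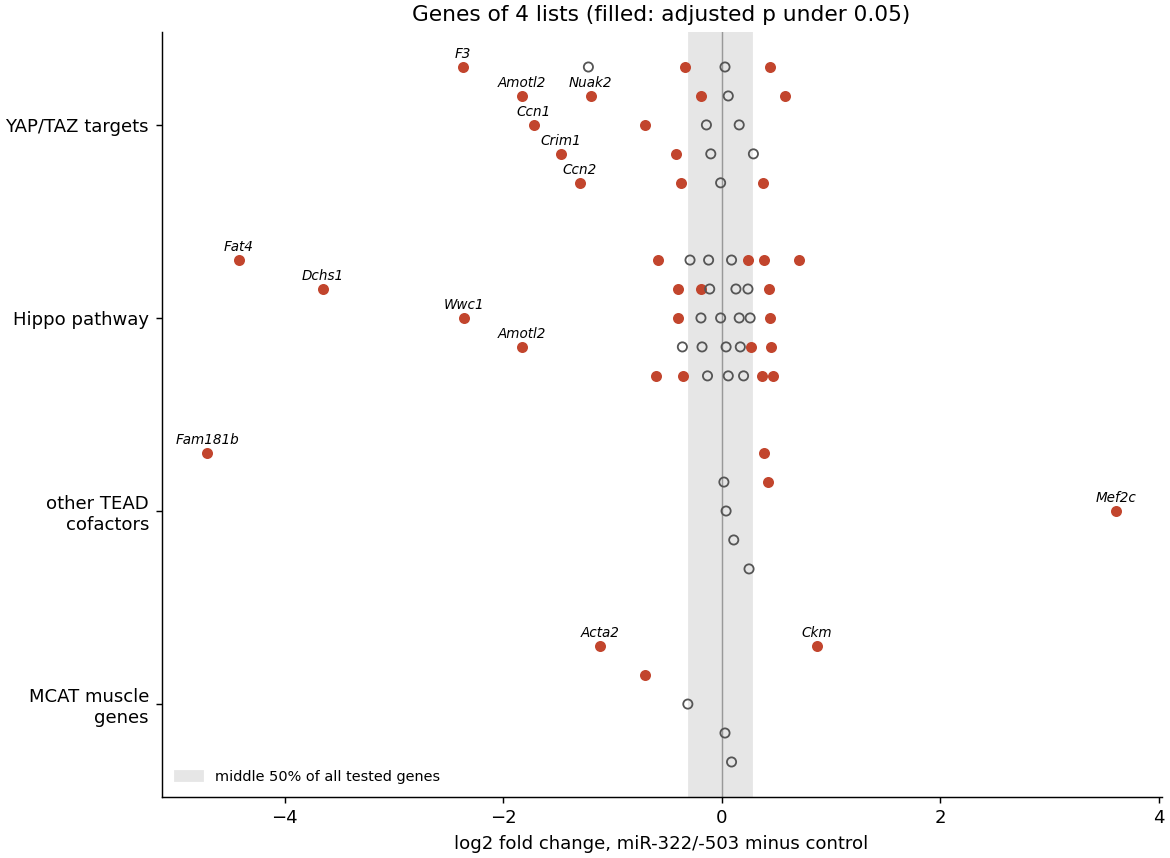
Log2 fold change, miR-322/-503 minus control, of every tested gene in the 4 lists, 1 row of points per list, spread vertically for legibility. Filled points had an adjusted p under 0.05, named genes are those described in the text, and the grey band holds the middle 50% of all tested genes (-0.30 to 0.28).

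Genes with a profile most like that of Vgll2 and Tead2 over the 6 libraries were found by the root mean square difference of log2(CPM + 0.1), centred on the control mean. For Vgll2 the nearest was Hdc, the histidine decarboxylase gene, with a difference of 0.374 and mean levels of 0.359 CPM in control and 51.5 CPM in miR-322/-503. Next came Adgrd1, an adhesion receptor gene (0.398), and Clca3b (0.562). AU018091 (0.608) was at 0 in all control libraries and averaged 5.53 CPM in miR-322/-503. Itga4, the integrin alpha-4 gene, was the fifth at 1.03. For Tead2 the nearest 5 genes were closer, at 0.0730 (6430548M08Rik), 0.0738 (Adamts14, a procollagen protease gene), 0.0783 (Gm42528), 0.0826 (Mfsd9) and 0.0834 (Gm29773). The likeness is over 6 libraries of a single contrast, and nothing about shared function or control is drawn from it.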

How the data were processed

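RNA-seq libraries from day 4 of myoblast differentiation were analysed, 3 for control and 3 for miR-322/-503, assigned from the labels. According to the submitters' processing notes and the study's methods, the authors used Trim Galore for trimming, HISAT2 for alignment to GRCm38 and StringTie for quantification. Versions and the gene annotation are not given in the sources used here. The authors deposited estimated counts per gene, not normalized, and per library a table of FPKM, TPM and coverage (a per-base signal). Counts were used as deposited. They stand for 75 bases each, so a read pair is about 4 counts, and 12 counts (3 read pairs) were taken as the floor. This floor covers counting error only, since no molecular identifiers are described. Gene symbols came from the tables of single libraries, and 55240 of 55421 identifiers were found in GENCODE M21.

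All genes were fitted together in R 4.3.3 with edgeR 4.0.16 (filterByExpr, TMM, glmQLFit, glmQLFTest), with Benjamini-Hochberg adjustment, and a call needed an adjusted p under 0.05 and a log2 fold change beyond 1. The fit was tested on simulated data. The alternatives were DESeq2 1.42.0, other size factors, other count filters, limma 3.58.1 on log2(TPM + 1) and log2(TPM + 0.1), the replicate number as a block, leaving out each library, and, chosen after seeing the data, counts per read pair. The 4-fold limit on spread within groups, the chromosome medians and the implied lengths were also chosen after seeing the data. The members and lists were chosen with earlier results of these data known. Named were all members, from each list the called genes (at most 8, or the top 2 by adjusted p under 0.05 and size where fewer than 2 were called), and the 5 nearest profiles of members beyond a log2 fold change of 1. Ankrd1, Myof, Gadd45a, Taok1, Mef2a, Mef2d, Myh7, Acta1, Tnnt2 and the 4 core kinases were named in addition, after their values were seen. Same-numbered libraries did not deviate together in every pair (correlations of 0.275, 0.141 and 0.077), so the numbers were not taken to pair them. Tead1 and Tead4 had no promoter entry. Proteins were not analysed here.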

Additional observations from a re-analysis of the deposited data

How the results depend on the processing

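No value changed direction past a threshold. The count of members called higher, 2, was 1 with at least 10 counts in every library (Vgll2 was then not tested), and 1 with limma on log2(TPM + 1) and on log2(TPM + 0.1), where Tead2 came to 0.768 and 0.804. It was 1 to 2 when a library was left out. Vgll2 was 4.887 with limma on log2(TPM + 1). The fall of Fam181b left the other cofactor list with 0 calls lower with at least 10 counts and with limma on log2(TPM + 1), since the gene was then not tested or compressed by the pseudocount. Under the same alternatives the Hippo list had 3 calls lower in place of 4, without Dchs1. Tead1 ranged from 0.32 to 2.36 over the fits without 1 library. Over estimated counts rather than TPM, the shares in control and miR-322/-503 were 0.146% and 22.8% for Vgll2, 69.9% and 43.6% for Vgll3, 29.9% and 33.6% for Vgll4 (the opposite direction to TPM) and 12.2% and 16.2% for Tead2, and in miR-322/-503 they were 53.5% for Tead1, 19.98% for Tead3 and 10.3% for Tead4. With the replicate block, 747 genes were called higher and 893 lower, against 832 and 959, Tead1 was 1.44, and no call among the members and lists changed. Control replicate 3 correlated best with miR-322/-503 replicate 2 (0.126), not with its own number. With limma on log2(TPM + 1), 391 genes were called higher and 564 lower. Vgll4, Tead3 and Wwtr1 changed sign among the alternatives and were past the threshold in none of them. Depth limits Vgll2 in control (8 to 22 counts), Dchs1 and Fam181b.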

Other observations

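Besides Tead1, 14 genes with at least 10 CPM in each group varied 4-fold or more within both groups. In 3 of the 15, a library was at 0. B3gnt2 varied 13.4-fold in control and 8.05-fold in miR-322/-503, Rnf26 17.9-fold and 6.66-fold, and Zbtb6 8.19-fold and 6.34-fold. Pcdhga9, in the clustered protocadherin genes whose members share exons, varied 56.5-fold and 85.5-fold. Ntn1, which encodes the guidance factor netrin-1, varied 4.86-fold and 5.30-fold, and Synpo2, which encodes a Z-disc protein, varied 4.37-fold and 4.29-fold. These genes were chosen after their values were seen, and what they share with Tead1 was not tested.

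The genes of the overexpressed microRNAs gave few counts in these libraries. Mir322 had 1, 7 and 2 estimated counts in control and 17, 0 and 3 in miR-322/-503, and Mir503 had 1, 1 and 2 in control and 6, 4 and 5 in miR-322/-503. All Mir503 values in miR-322/-503 were above those in control, at about 1 read pair each, so these libraries give no measure of the overexpression.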
